A study of Mus musculus with 27 samples.

Results

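The calcium-activated chloride channel regulator (Clca) genes are a family of 7 protein-coding genes of the mouse, Clca1, Clca2, Clca3a1, Clca3a2, Clca3b, Clca4a and Clca4b. They were taken by name from the 22524 genes counted in 27 RNA-seq libraries. The family was chosen with measured values of these libraries known, namely its levels in organoids, m-ICc12 cells and MEFs and the difference between the libraries of each culture by treatment label. Those values are therefore given below as a description without a test. Organoid cultures came from the jejunum of adult male C57BL/6 mice, with 3 littermates from each of the SPF facilities SR and SE and 3 from a germ-free facility (GF). SPF mice carry a microbiota free of specified pathogens, and organoids are epithelial cultures grown from crypts. The 9 cultures, 1 per mouse, were each sequenced as a pair, with 1 library labelled untreated and its partner labelled TNF-treated (8 h at a dose of 5 ng/ml). TNF is a proinflammatory cytokine that acts through NF-kB. The m-ICc12 line, an immortalised small intestinal epithelial line of the mouse, gave 3 such pairs, and mouse embryonic fibroblasts (MEFs) gave 3 untreated libraries.

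Clca proteins are secreted or membrane-attached glycoproteins that are cut into fragments by their own metalloprotease domain. They are not channels themselves, and members have been found to modulate calcium-activated chloride currents. In the intestine, Clca1 is known as a goblet cell product and a component of mucus. The members arose by gene duplication and lie side by side, so that their transcripts resemble one another.

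On GRCm38, the 7 genes occupied 369.8 kb of chromosome 3, from 144729677 to 145099443, all on the minus strand. In order of rising coordinate they were Clca3a1 (ENSMUSG00000056025, 144729677 to 144760977), Clca3a2 (ENSMUSG00000028262, 144796559 to 144819494), Clca3b (ENSMUSG00000037033, 144822623 to 144849357), Clca4b (ENSMUSG00000074195, 144910921 to 144932529), Clca4a (ENSMUSG00000068547, 144952480 to 144975045), Clca1 (ENSMUSG00000028255, 145003817 to 145032776) and Clca2 (ENSMUSG00000036960, 145070263 to 145099443). The pseudogene Clca4c-ps sits between Clca3b and Clca4b and was not analysed here. Antisense genes overlap Clca3a1, Clca3a2 and Clca4a in the annotation. The sample labels call the library kit stranded whereas the methods do not, and the strand setting of the counting was not given in the sources used here.

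The 4 members at the low-coordinate end, Clca3a1, Clca3a2, Clca3b and Clca4b, held the highest levels in organoids and differed most between the treatment labels. The 250 bases before the annotated starts of Clca3a1 and Clca4b (RefSeq, GRCm38.p6, minus strand, printed 5′ to 3′) are shown as the windows of the outer members of this group. They lie at chr3:144760978-144761227 and chr3:144932530-144932779. Capitals in Clca4b mark matches to TATAAA on the opposite strand.
Clca3a1: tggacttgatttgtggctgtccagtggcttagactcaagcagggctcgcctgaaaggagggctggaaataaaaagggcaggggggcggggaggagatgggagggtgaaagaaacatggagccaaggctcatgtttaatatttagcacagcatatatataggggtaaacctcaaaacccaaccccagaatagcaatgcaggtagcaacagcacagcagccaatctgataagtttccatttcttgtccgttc
Clca4b: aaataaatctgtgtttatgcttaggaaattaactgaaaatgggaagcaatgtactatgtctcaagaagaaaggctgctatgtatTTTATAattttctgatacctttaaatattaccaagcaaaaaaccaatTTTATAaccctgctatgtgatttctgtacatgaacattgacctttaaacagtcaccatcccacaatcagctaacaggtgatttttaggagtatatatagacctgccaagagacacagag
After global alignment the windows were 45.2% identical, and their longest shared run was 9 bases. TATAAA was found in the window of Clca4b and not in that of Clca3a1, against 12.4% of all 32851 promoter windows. Both matches lay on the opposite strand, with first bases at −166 and −119 from the annotated start. GTTAAT, part of the site of HNF1 factors, was also found in the Clca4b window, against 6.43% of all windows. The NF-kB consensus was found in neither, against 7.25% of all windows. All motifs were searched on both strands. A match of letters is a description of the window and not a binding site. Clca4a and Clca1 had no entry.

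Because the members resemble each other, the share of each transcript that could not be told apart from another gene was measured first. Reads were single-end and longer than 100 bases as sequenced, and trimming could leave shorter ones. Of all 100-base stretches of the transcripts of Clca4a, 21.9% also occurred in another gene, most often in Clca4c-ps. This share was 9.47% for Clca3a1, 9.80% for Clca3a2 and 6.49% for Clca4b. Clca3a1 and Clca3a2 mostly shared stretches with each other, and Clca4b with Clca4a. The share was 0.608% for Clca3b, all of it with Clca3a2, and 0% for Clca1 and Clca2. For 50-base stretches the shares were 41.0% for Clca4a, between 24.8% and 26.9% for Clca3a1, Clca3a2 and Clca4b, and 6.68% for Clca3b. Most of the share of Clca3b, 5.17%, was with Clca3a2. Low values of Clca4a, Clca3a1 and Clca3a2 are accordingly uncertain, since the authors' counting could lose or split reads between copies. Whether reads of the far more abundant Clca3b were counted for Clca3a2 was not tested.

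Total counts per library ran from 6071103 to 43843615. The shallowest was an m-ICc12 library labelled TNF-treated, and a floor of 3 counts corresponded to 0.0655 to 0.522 CPM (counts scaled to the depth of each library, with TMM factors). Goblet, enterocyte and stem cell markers were present in the organoids, with 9 of 10, 12 of 12 and 8 of 8 genes above 3 counts in every organoid library. The summed fibroblast markers were 12.4 to 32.4 CPM in organoids against 5765 to 6945 CPM in MEFs. In m-ICc12 cells they reached 1843 to 3003 CPM, with 3 of 8 genes above 3 counts in every library, while the summed enterocyte markers were 22.1 to 93.1 CPM against at least 2601 CPM in organoids. The treatment labels went against known TNF targets. All 5 of Nfkbia, Tnfaip3, Nfkb2, Relb and C3 were lower in libraries labelled TNF-treated, in organoids and in m-ICc12 cells, with log2 differences from −7.05 to −1.49 in organoids. In all 12 pairs, moreover, the code of the deposited table names the opposite treatment from the label of its sample. Directions below are therefore given by label only, and a true treatment opposite to the label would turn each label difference around. Organoids labelled untreated would then be TNF-treated cultures, also where they are set against MEFs or compared by origin.

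Clca3b was the most abundant member in the organoid libraries labelled untreated. Its level was lowest at 1152 CPM, with a median of 1767 and a highest value of 1949 CPM over the 9 cultures. Clca4b followed with 599.7, 936.8 and 1241 CPM as lowest, median and highest values. Their ranges overlapped slightly, and no other member came near either of them.

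Clca3a2 had a lowest, median and highest level of 24.2, 40.7 and 60.7 CPM, and Clca3a1 of 17.4, 37.0 and 45.8 CPM. Those ranges overlapped largely. Clca1, the goblet cell product, reached 22.9 CPM in 1 SE culture and had a median of 6.65 CPM, and it was at 0 counts in 1 SR culture. Clca4a had a median of 3.12 and a highest value of 11.8 CPM, and it was at 0 counts in 1 GF culture.

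Clca2, which is best known from stratified epithelia, had 0 counts in all 27 libraries. With 778720741 counts in total, 0 counts allow a level of up to 0.00383 CPM over all libraries. This limit covers counting error only.

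Per kilobase of annotated exon, the mean levels in organoids labelled untreated were 497.7 ± 74.6 CPM per kb for Clca3b and 311.7 ± 79.3 for Clca4b (SD, n = 9). They were 10.4 ± 3.35 for Clca3a2, 8.84 ± 2.37 for Clca3a1, 2.09 ± 1.95 for Clca1 and 1.54 ± 1.47 for Clca4a on the same scale. Neighbours in this order did not differ beyond their spread for Clca3a2 and Clca3a1, nor for Clca1 and Clca4a. In the libraries labelled TNF-treated, the order of the leading pair was the opposite, with 185.0 ± 66.3 CPM per kb for Clca4b and 170.0 ± 35.0 for Clca3b, a difference within the spread.

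**Figure D1:**
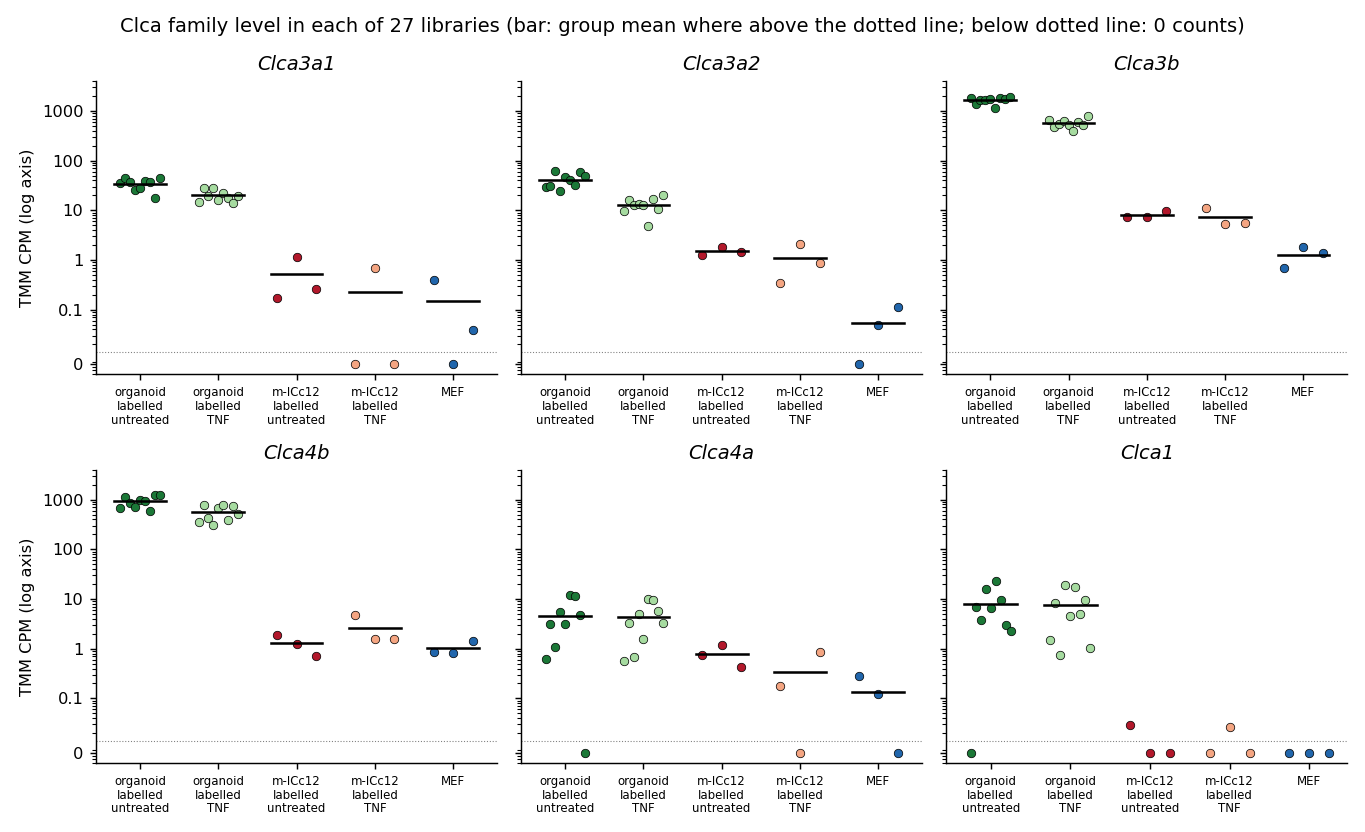
TMM CPM on a log axis of the 6 detected Clca genes in each of the 27 libraries, grouped by culture type and treatment label. Points are libraries, bars are group means and points under the dotted line had 0 counts. Clca3b and Clca4b lie at 309.2 CPM or more in organoids and at 10.96 CPM or less in m-ICc12 cells and MEFs.

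Compared with both cell cultures, organoids held far more Clca RNA. In the m-ICc12 libraries labelled untreated, Clca3b was at 7.42, 7.18 and 9.69 CPM, and in the MEF libraries at 0.688, 1.81 and 1.38 CPM. No cell culture library came near the organoid range. The organoid level of Clca3b exceeded that of m-ICc12 cells by 7.71 ± 0.23 and that of MEFs by 10.36 ± 0.33 on the log2 scale (edgeR estimate ± SE, 9 against 3 libraries).

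Clca4b was at 1.93, 1.24 and 0.720 CPM in m-ICc12 cells and at 0.855, 0.828 and 1.41 CPM in MEFs, and the 2 cell cultures overlapped. Its log2 differences to organoids were 9.53 ± 0.41 and 9.87 ± 0.37. Clca3a2 was at 1.29, 1.83 and 1.44 CPM in m-ICc12 cells, and the MEF libraries held 0, 2 and 3 counts. The log2 difference to organoids was 4.78 ± 0.36 for m-ICc12 cells. Against the 5 counts of the MEF libraries, the organoid level of Clca3a2 was 897.0-fold higher, with a counting interval from 384.4 to 2763 (exact Poisson, 95%).

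Clca3a1 was at 0.175, 1.13 and 0.264 CPM in m-ICc12 cells and at 17, 0 and 1 counts in the MEF libraries. Its log2 difference to organoids was 6.01 ± 0.56 for m-ICc12 cells and 7.73 ± 0.69 for MEFs. Single libraries weighed on both, since the value was 7.28 without m-ICc12 replicate M2 and 10.78 without MEF library R1. Clca1 had 1, 0 and 0 counts in m-ICc12 cells and 0 counts in all 3 MEF libraries. Its organoid mean of 7.89 CPM was at least 284.4-fold higher than in MEFs, taking a floor of 3 counts over that group. The ratio to the single count of the m-ICc12 libraries was 960.4, with a counting interval from 172.4 to 37933.

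Between the libraries labelled TNF-treated, the log2 gap between organoids and m-ICc12 cells was smaller for Clca3b, Clca4b and Clca3a2, at 6.404, 8.05 and 3.41. It was 5.87 ± 0.67 for Clca3a1 and 3.62 ± 1.23 for Clca4a, within the error of the values by label untreated. MEFs had no library labelled TNF-treated. Organoids labelled TNF-treated averaged 571.4 CPM for Clca3b and 554.4 CPM for Clca4b, against 1673 and 934.1 CPM by label untreated. For both genes the gap to MEFs, at means of 1.29 and 1.03 CPM, was therefore smaller by label TNF-treated.

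Clca4a overlapped between organoids and m-ICc12 cells, and so did Clca1, through 1 organoid library at 0 counts. In m-ICc12 cells Clca4a was at 0.759, 1.20 and 0.432 CPM, within the range of the organoid libraries. Its log2 difference was 2.55 ± 1.25. In MEFs it had 12, 5 and 0 counts. Thus 4 of the 6 detected members, Clca3a1, Clca3a2, Clca3b and Clca4b, did not overlap between organoids and m-ICc12 cells, against 23.7% of all genes tested with organoids higher. The same 4 did not overlap between organoids and MEFs, against 27.4% of all genes. These contrasts were used in choosing the family, so nothing is read from the counts.

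Goblet and enterocyte markers were also found at low levels in both cell cultures. The goblet markers had a median level in m-ICc12 cells of 0.162% of that in organoids, and 0.139% in MEFs. For enterocyte markers these medians were 0.205% and 0.224%, with highest values of 4.39% and 2.52%. In m-ICc12 cells the highest genes of the Paneth and stem lists reached 36.7% and 34.4%, with list medians of 0.142% and 0.385%. In MEFs the highest stem value was 9.34%, and the tuft list had a median of 12.6%. By the same measure, Clca4b was at 0.139% and 0.110% and Clca3b at 0.484% and 0.0771%. In m-ICc12 cells Clca3a1 stood at 1.52%, Clca3a2 at 3.66% and Clca4a at 17.2% of the organoid level. Whether the low values reflect RNA made by these cells was not tested.

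By treatment label, Clca3b differed most evenly among the members in organoids, with less RNA in every library labelled TNF-treated. Its level ran from 399.8 to 799.7 CPM with a median of 558.7 in libraries labelled TNF-treated, against 1152 to 1949 CPM in those labelled untreated. The groups did not overlap, and the library labelled untreated was 2.44 to 3.45 times its partner in the 9 cultures. The fitted log2 difference, labelled TNF-treated minus untreated, was −1.55 ± 0.11. It was close in each facility, from −1.59 to −1.51 in SR cultures, −1.79 to −1.36 in SE cultures and −1.78 to −1.29 in GF cultures when taken per culture.

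Clca3a2 ran from 4.81 to 20.0 CPM with a median of 12.8 in libraries labelled TNF-treated, and these did not overlap with the other group either. The partner libraries differed by 1.78 to 8.47 times. Its log2 difference was −1.68 ± 0.22. This was as large as that of Clca3b but varied more from culture to culture.

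Clca4b ran from 309.2 to 790.0 CPM with a median of 514.8 in libraries labelled TNF-treated. It was lower than its partner in 9 of 9 cultures, by 1.202 to 2.41 times, although the groups overlapped. Its log2 difference was −0.76 ± 0.18. Clca3a1, with 13.96 to 28.3 CPM and a median of 19.7, was lower in 8 of 9 cultures and slightly higher in 1 SE culture. Its log2 difference was −0.79 ± 0.18.

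Clca4a and Clca1 showed no common direction. Clca4a ran from 0.570 to 10.0 CPM in libraries labelled TNF-treated and was lower than its partner in 6 and higher in 3 cultures, with a log2 difference of −0.07 ± 0.66. Clca1 ran from 0.760 to 19.2 CPM and was lower in 5 and higher in 4 cultures, with a log2 difference of −0.09 ± 0.65. The wide errors leave room for differences of either sign.

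**Figure D2:**
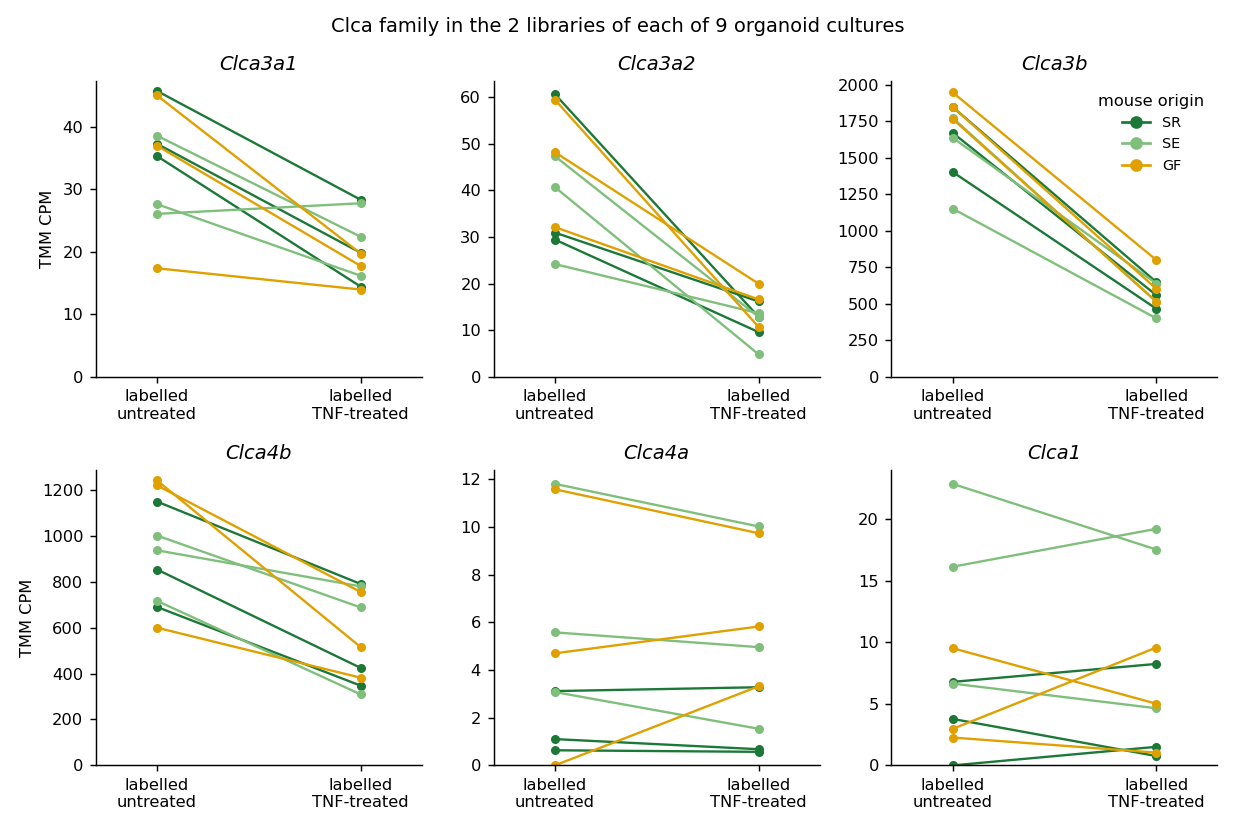
TMM CPM (linear axes from 0) of the 6 detected Clca genes in the library labelled untreated and the library labelled TNF-treated of each of 9 organoid cultures. Lines join libraries of 1 culture and colours give the mouse origin. All 9 lines fall for Clca3a2, Clca3b and Clca4b, 8 of 9 fall for Clca3a1, and lines for Clca4a and Clca1 cross.

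In counts over the family, 3 of the 6 members were lower in all 9 cultures, against 1.87% of the 12104 genes tested. Clca3a2 and Clca3b did so without overlap of the groups, against 0.463%. Since this contrast chose the family, the counts describe it and support nothing further. The median log2 difference of the 6 members was −0.77, and that of all genes tested was −0.00029.

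The family's makeup shifted with the label, since Clca3b changed by more than Clca4b. The ratio of Clca3b to Clca4b counts was 1.22 to 3.08 in libraries labelled untreated and 0.513 to 2.07 in those labelled TNF-treated. It was lower in the library labelled TNF-treated in 9 of 9 cultures, with the smallest step in GF culture Z919, from 1.57 to 1.55. The summed level of the family was 2203 to 3286 CPM by the first label and 1013 to 1359 CPM by the second, with no overlap.

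Some stem cell markers were lower in the same libraries. Of the 8 in the list, 3 were called lower in libraries labelled TNF-treated by edgeR's quasi-likelihood test at an adjusted p under 0.05 (Olfm4, Ascl2 and Slc12a2), against 1.26% of all 12104 genes, and 0 higher, against 0.124%. They had log2 differences of −1.82 ± 0.29, −1.70 ± 0.23 and −0.33 ± 0.07. Lgr5, the defining receptor of these cells, differed by 0.06 ± 0.20, and Smoc2, Sox9, Rnf43 and Axin2 by 0.11, −0.02, −0.07 and −0.14. The median of the list was −0.11. The summed stem list was 2355 to 4424 CPM by label untreated and 1870 to 3068 CPM by label TNF-treated, and Olfm4 and Slc12a2, which is also a transport gene, made up much of it. Of the goblet, enterocyte, Paneth, enteroendocrine and tuft lists, no gene passed. This fit was unpaired, as it did not join the 2 libraries of a culture. With the culture as a block, 397 genes were called in place of 168, and calls of the lists were not counted in that fit. The part of cell composition in the Clca differences was not tested, and in bulk samples fewer cells of a type and less RNA per cell cannot be told apart.

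The genes that flank the cluster did not follow the members. Hs2st1, Selenof and Sh3glb1 on the low-coordinate side had log2 differences by label in organoids of 0.06 ± 0.10, −0.12 ± 0.07 and −0.08 ± 0.09. On the other side, Odf2l and Znhit6 differed by 0.22 ± 0.22 and 0.30 ± 0.17, and Col24a1 had 0 counts in all organoid libraries. None of the 5 tested passed in the unpaired fit (smallest unadjusted p = 0.0864, edgeR quasi-likelihood test).

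Among 25 genes of chloride and fluid transport, 18 were tested in the same unpaired fit. By edgeR's test 0 were called higher in libraries labelled TNF-treated, against 0.124% of all 12104 genes, and 2 lower, against 1.26%. Kcnq1, a potassium channel that supports chloride secretion, went from a mean of 387.3 ± 46.6 to 291.5 ± 30.0 CPM (SD, n = 9), a log2 difference of −0.41 ± 0.08 (edgeR adjusted p = 0.00221). Slc12a2, the sodium-potassium-chloride cotransporter, went from 1232 ± 155 to 986.7 ± 68.3 CPM (edgeR adjusted p = 0.0134). Cftr, the main apical chloride channel, differed by 0.09 ± 0.09, the chloride channel Clcn2 by 0.09 ± 0.15 and the calcium-activated channel Ano1 by −0.14 ± 0.45 on the log2 scale, and these did not pass. The median of the 18 was 0.01.

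In m-ICc12 cells, the members gave no such pattern by label. Clca3b was at 10.96, 5.31 and 5.66 CPM by label TNF-treated, and 2 pairs were lower and 1 higher. Its log2 difference was −0.16 ± 0.45. Clca4b was at 4.70, 1.58 and 1.58 CPM and was higher in 3 of 3 pairs. Its log2 difference of 1.00 ± 0.95 rested on 27 to 66 counts per library. Clca3a1 was the only member lower in 3 of 3 pairs, against 13.2% of genes. It had 0, 26 and 0 counts in the libraries labelled TNF-treated. Clca3a2 differed by −0.40 ± 0.99 and Clca4a by −1.13 ± 1.43.

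The origin of the mice was not used in choosing the family, so it was tested for each member. In libraries labelled untreated, Clca3b was at 1855 ± 91.04 CPM in GF cultures, 1641 ± 224 in SR cultures and 1521 ± 327 in SE cultures (SD, n = 3 each). The GF minus SPF difference was 0.22 on the log2 scale, with a 95% interval from −0.04 to 0.49 (edgeR quasi-likelihood test, unadjusted p = 0.120). Clca4b differed by 0.19 (−0.20 to 0.58), Clca3a2 by 0.25 (−0.26 to 0.77) and Clca3a1 by −0.09 (−0.62 to 0.44). Clca4a at 0.35 (−1.73 to 2.44) and Clca1 at −0.94 (−2.86 to 0.99) had intervals too wide to bound a change. None of the 6 members passed at an adjusted p under 0.05 or at an unadjusted one in edgeR or DESeq2, against 0.0325% of 12315 genes called by edgeR.

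Between the SPF facilities, none of the 4 abundant members passed the test. The log2 differences, SR minus SE, were 0.11 (−0.21 to 0.43) for Clca3b, 0.02 (−0.33 to 0.37) for Clca4b, 0.11 (−0.50 to 0.71) for Clca3a2 and 0.36 (−0.11 to 0.84) for Clca3a1. The rare members had lower means in SR cultures. Clca1 was at 0, 6.79 and 3.78 CPM in SR and at 16.1, 6.65 and 22.9 CPM in SE cultures, and the groups overlapped slightly. Clca4a was at 0.635, 3.12 and 1.10 CPM in SR and at 5.58, 3.08 and 11.8 CPM in SE cultures, again with a slight overlap. Paneth and enterocyte markers were also lower on average in SR cultures. The Paneth list had a median log2 difference of −0.73, with 3 of 7 genes under an unadjusted threshold of 0.05 in edgeR, and the enterocyte list one of −0.51, with values from −0.76 to −0.24 for its 12 genes. No gene of either list passed after adjustment, and their part in the Clca1 and Clca4a values was not tested.

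Their log2 differences were −2.11 ± 0.98 for Clca1 (unadjusted p = 0.0478, edgeR) and −2.06 ± 0.91 for Clca4a (unadjusted p = 0.0390, edgeR). Neither passed after adjustment over 12219 genes, of which 0% were called by edgeR, 486 at an unadjusted p under 0.05, and 8 by DESeq2. In DESeq2, 1 member had an unadjusted p under 0.05. Without SE culture Z913 the edgeR p rose to 0.166 for Clca1 and 0.280 for Clca4a, and without SR culture Z910 to 0.108 and 0.0991. The mice of each facility were cohoused littermates, so facility, litter, cage and microbiota cannot be told apart here. This also holds for the GF minus SPF differences, and the tests took the mice as independent. The difference of the label effect between GF and SPF cultures did not pass for any of the 6 members. For Clca3b it was 0.02 on the log2 scale (−0.41 to 0.45), and for Clca4b −0.21 (−0.97 to 0.55). Over all genes, 0% of 12640 passed this interaction by edgeR, with 323 at an unadjusted p under 0.05, 1 by DESeq2, and no member at either level.

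**Figure D3:**
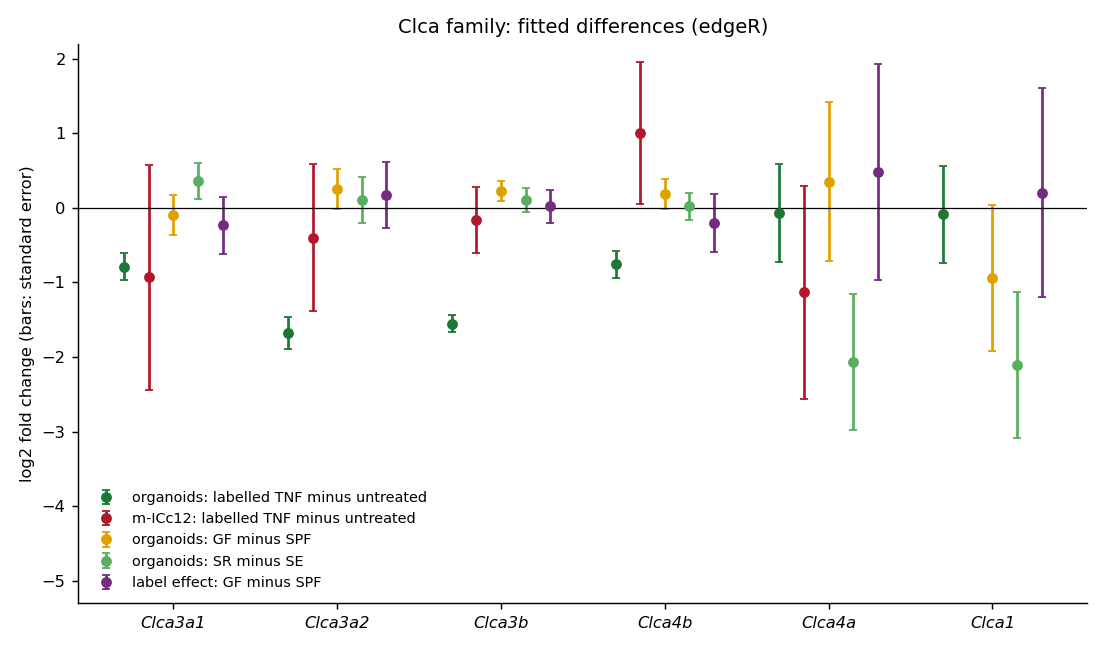
Fitted log2 differences of the 6 detected Clca genes (edgeR, bars are standard errors) by treatment label in organoids and in m-ICc12 cells, by origin, by SPF facility, and for the difference of the label effect between origins. Clca1 has no m-ICc12 value since its counts fell under the filter. The label values of Clca3a2 and Clca3b in organoids stand at −1.68 and −1.55, and no origin or facility value passed its test.

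Variation between the organoid libraries of 1 label set the members apart. In libraries labelled untreated, the coefficient of variation was 14.98% for Clca3b, 25.4% for Clca4b, 26.8% for Clca3a1 and 32.1% for Clca3a2, against a median of 22.4% over 12104 genes. For Clca1 it was 93.3% and for Clca4a 95.3%, higher than in 92.4% and 92.7% of these genes. Those genes were of all levels, and a comparison with genes of similarly low level was not made. The same pair varied most in libraries labelled TNF-treated, by 91.9% and 80.3%. Part of the 0 values lay in 1 library of a pair only. Clca1 had 0 counts in the library labelled untreated of culture Z908 and 1.51 CPM in its partner, and Clca4a 0 counts in that of culture Z919 and 3.32 CPM in its partner.

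Variation of the members over the 18 organoid libraries was also compared after the mean of each label was taken out. Correlations here are across libraries that share a culture in pairs, and are given without a test. Clca3b was most like Mreg, Hsp90ab1, Slc7a2, Lgr5 and Shmt1, with Pearson's r from 0.85 to 0.91. Lgr5 marks intestinal stem cells. Against the 8 stem cell markers Clca3b had a median r of 0.70, positive for 7, and against the 12 enterocyte markers a median of −0.75, positive for 0.

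Clca4b gave the opposite picture. It was most like Cyp2c65, Idh1, Fam213a and Fabp2 among the genes reported, with r from 0.87 to 0.90. Fabp2 is a fatty acid binding protein of enterocytes. Its median r was 0.64 against the enterocyte markers, positive for 12 of 12, and −0.37 against the stem cell markers, positive for 1 of 8. Between Clca3b and Clca4b themselves r was −0.49, and between Clca3b and Clca3a2 it was 0.45. With the mean of each facility and label taken out, the medians of Clca3b were 0.71 for stem and −0.75 for enterocyte markers, and those of Clca4b −0.50 and 0.69.

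Clca4a was most like Rdh10, Eps8, Anxa2, Kctd12 and Ahnak (r from 0.85 to 0.90), and Clca1 was most like Sema6a, D930048N14Rik, Abraxas1, Fam114a1 and Tcea2 (r from 0.83 to 0.87). These 2 rare members were alike, with r = 0.61. Against the goblet markers, the median r of Clca1 was −0.05, positive for 4 of 9. Like Clca4b, both were positive with 12 of 12 enterocyte markers, with a median r of 0.39 for Clca1 and 0.45 for Clca4a. With the Paneth markers the medians were 0.37 and 0.48, positive for 7 of 7, and with the stem cell markers −0.31 and −0.25. With the mean of each facility and label taken out, the Paneth medians were 0.21 for Clca1 and 0.39 for Clca4a, positive for 6 of 7. The enterocyte medians were then 0.30 and 0.37, the stem medians −0.48 and −0.39, and r between Clca1 and Clca4a was 0.54. Clca3a2 was most like Rslcan18, Adh5, Marveld2, Eif2s3x and Grhl2 (r from 0.72 to 0.76). Clca3a1 was most like Rps13, Srek1ip1, Rpl10, Tomm7 and Pcmtd1 (r from 0.76 to 0.79). Between Clca3a1 and Clca3a2, which mostly shared stretches of sequence with each other, r was −0.05.

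**Figure D4:**
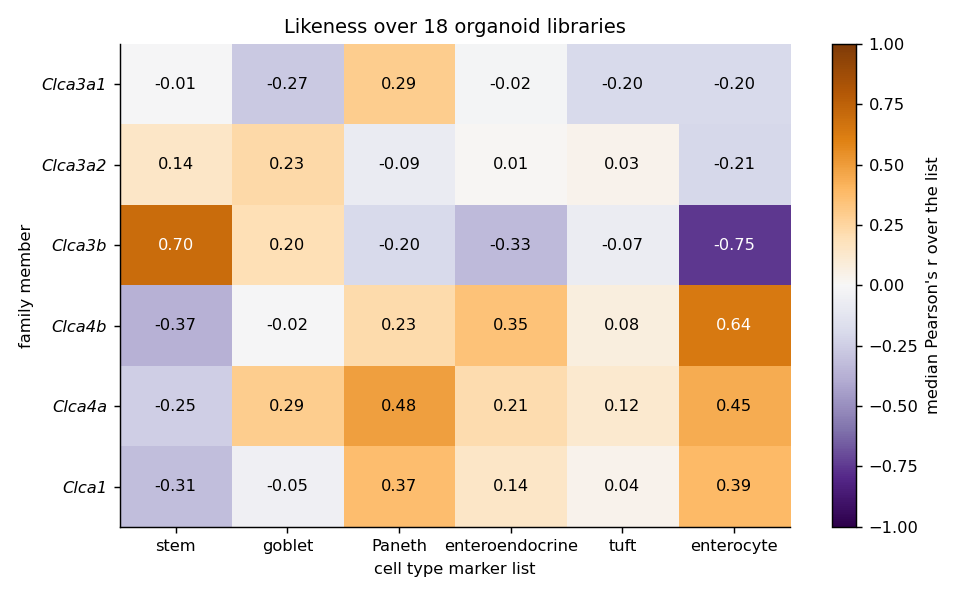
Median Pearson's r of each detected Clca gene with 6 lists of cell type markers over 18 organoid libraries, as deviations of log2 CPM from the mean of each treatment label. Clca3b has 0.70 with stem cell and −0.75 with enterocyte markers, whereas Clca4b has −0.37 and 0.64.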

How the data were processed

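Poly-A RNA was sequenced in 27 libraries by the authors from TruSeq libraries. The submitters' processing notes list bcl2fastq 2.19, Trimmomatic, STAR 2.5.4b, featureCounts and GRCm38. The methods give another STAR version, Ensembl release 91 and GenomicRanges for counting, so the sources differ on both steps. The deposited values are whole read counts per gene. Family members and gene lists were chosen with earlier results of these data known. Here, edgeR 4.0.16 (R 4.3.3) fitted TMM-scaled counts with its quasi-likelihood test over genes reaching 10 counts in 50% or more of a compared group, with Benjamini-Hochberg adjustment. Scripts were tested on simulated data. The text names all members, their flanking genes, the 5 genes most like each member, fixed marker genes and the transport genes that passed. Libraries of 1 organoid culture share a mouse, and their deviations correlated by 0.171 on average (0.0821 to 0.310), against −0.0695 between cultures. For the m-ICc12 pairs the average was 0.0310 (−0.00667 to 0.0925), against −0.251 between pairs. Groups follow the labels, and the fits did not pair the libraries of a culture except where a block is named. DESeq2 1.42.0, no count filter, leaving out each culture, a block for the culture, exchanged labels, a facility term, summed libraries, 1 joint fit, rank correlations and 100-base stretches were alternatives. Depth was 6071103 to 43843615 counts. Exact Poisson intervals cover counting error only, whereas intervals of edgeR differences also take in the spread between libraries. For m-ICc12 cells and MEFs nothing says that libraries came from separate cultures, so p-values there measure the spread between libraries. Some genes and sequences are not reported here.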

Additional observations from a re-analysis of the deposited data

Results flagged for a closer look

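Clca4b was lower in the library labelled TNF-treated in 9 of 9 organoid cultures and higher in 3 of 3 m-ICc12 pairs. The m-ICc12 pairs follow replicate numbers, and nothing says that they came from separate cultures. Its log2 differences were −0.76 ± 0.18 and 1.00 ± 0.95. The difference between these directions was not tested, and the m-ICc12 value rests on 27 to 66 counts per library. In 30 groups of member values tested, 0 held a sample far from the others by Dixon's criterion, which chance alone meets in about 1 of 20 groups.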

How the results depend on the processing

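The number of members called was 0 for origin, facility, the interaction and the m-ICc12 labels under every alternative run, DESeq2 included. For organoids against m-ICc12 cells, where most genes were called (7899 of 12962 as fitted), it was 5 or 6. For organoids against MEFs, where most genes were also called (8829 of 13144 as fitted), it was 6. For the organoid label comparison, which chose the family and so is no test of it, it was 4 as fitted. The number was also 4 with DESeq2, without a filter, with a facility term and with the culture as a replicate block. It was 2 to 4 when 1 culture was left out (2 without Z910 or Z919, Clca3a2 and Clca3b). Exchanging the labels within pairs cannot change the calls of a label comparison or of the interaction. Over all genes the block took the calls from 168 to 397. In that block fit the paired log2 difference was −1.56 for Clca3b, −1.69 for Clca3a2, −0.80 for Clca4b and −0.78 for Clca3a1. Labels exchanged within pairs turned the organoid label differences around by construction, to 0.79 for Clca3a1, 1.68 for Clca3a2, 1.55 for Clca3b and 0.76 for Clca4b, and the interaction to 0.24, −0.18, −0.022 and 0.21 for them, −0.48 for Clca4a and −0.21 for Clca1. In that setting Clca4b became −0.022 for GF minus SPF, and for SR minus SE Clca3a1 became −0.081 and Clca4b −0.19. Summing both libraries gave SR minus SE values of −0.078 for Clca3b and −0.16 for Clca4b. The paired interaction of Clca1 was −0.19 with the block. None of the reversed origin, facility or interaction values had an edgeR p under 0.05 (smallest 0.276), and the block changed no other call of a member. Over all genes, calls went from 4 to 21 for origin and from 0 to 8 for facility with DESeq2, and from 13 to 46 with DESeq2 and to 6 with the block for the m-ICc12 labels.

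Leaving out 1 culture gave GF minus SPF ranges of −0.38 to 0.21 for Clca3a1 and −0.85 to 1.00 for Clca4a, and SR minus SE ranges of −0.31 to 0.32 for Clca3a2, −0.054 to 0.24 for Clca3b and −0.21 to 0.18 for Clca4b. The interaction ranged from −0.071 to 0.61 for Clca3a2, −0.14 to 0.12 for Clca3b, −0.36 to 0.0027 for Clca4b and −0.85 to 1.14 for Clca1. Of the 30 genes most like a member, 5 for each, 11 were also among the 5 with rank correlations and 12 with facility and label means taken out. With stretches of 100 bases the shared share was 9.47% for Clca3a1, 9.80% for Clca3a2, 0.608% for Clca3b, 6.49% for Clca4b and 21.9% for Clca4a. Depth limits Clca1, Clca4a, Clca3a1 and Clca3a2 in m-ICc12 cells and MEFs, where several of their values lie at or under 3 counts.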
